A study of Mus musculus with 4 samples.

Results

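Acute phase proteins of the liver were followed as 9 genes, of 8251 named on the array, through 12 Affymetrix MG_U74Av2 probe sets, of 12422 that were not controls. They are all the probe sets whose only annotated gene symbol was Lcn2, Saa1, Saa2, Saa3, Saa4, Orm1, Orm2, Hp, Hpx or Apcs. Of the 10 genes Saa1 is the missing member, since no probe set carried that symbol alone, and Lcn2, Saa2 and Hpx had 2 probe sets each. The arrays held total liver RNA of 2 groups of male B6SJL hybrid mice aged 58 to 60 days. The PEPCK-TAg group carried SV40 large T and small t as a transgene driven by the phosphoenolpyruvate carboxykinase (PEPCK) promoter, which is active in liver, kidney and fat and responds to diet, and the wild-type (WT) group carried no transgene. Each group had 2 arrays, numbered as in the sample titles, and both groups had eaten 10% protein and 70% carbohydrate for 4 weeks after weaning. The series concerns the change of hepatic gene expression under long exposure to low amounts of these oncoproteins. Nothing in the labels ties the arrays of a group to separate animals. A p-value here thus sets a change against the spread between arrays, which may be technical. The fit takes that spread in part from the other probe sets.

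Acute phase proteins are plasma proteins that hepatocytes secrete in larger or smaller amounts during inflammation. Interleukin-6, through its receptor and STAT3, and interleukin-1 and tumour necrosis factor, through NF-kB, act with transcription factors of the C/EBP family on their genes. The serum amyloid A proteins ride on high-density lipoprotein, the orosomucoids bind small lipophilic molecules, haptoglobin and hemopexin bind free haemoglobin and haem, and lipocalin 2 binds bacterial iron carriers. In mice serum amyloid A and serum amyloid P component, encoded by Apcs, are strong reactants of the response.

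RefSeq promoter sequences (GRCm38.p6) were at hand for 8 of the 10 genes, with none for Orm1 and Hp. The 250 bases before the start are shown, 5' to 3' on the strand of the gene, for the 2 genes whose probe sets passed the test in PEPCK-TAg liver (Lcn2, chr2:32387740-32387989, minus strand, and Saa3, chr7:46715677-46715926, minus strand), for Orm2 (chr4:63362199-63362448, plus strand), which came near the threshold, and for the near copies Saa1 (chr7:46742981-46743230, minus strand) and Saa2 (chr7:46751583-46751832, plus strand). Capitals mark letters that match a C/EBP pattern (TTGCNNAA), an NF-kB pattern (GGGNNNNNCC) or a STAT pattern (TTCNNNGAA), each searched on both strands.
Lcn2: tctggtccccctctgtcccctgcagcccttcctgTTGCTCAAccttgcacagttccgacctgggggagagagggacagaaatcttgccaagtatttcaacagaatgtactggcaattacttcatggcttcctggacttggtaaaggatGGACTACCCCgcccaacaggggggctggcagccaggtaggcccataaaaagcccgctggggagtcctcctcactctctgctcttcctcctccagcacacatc
Saa3: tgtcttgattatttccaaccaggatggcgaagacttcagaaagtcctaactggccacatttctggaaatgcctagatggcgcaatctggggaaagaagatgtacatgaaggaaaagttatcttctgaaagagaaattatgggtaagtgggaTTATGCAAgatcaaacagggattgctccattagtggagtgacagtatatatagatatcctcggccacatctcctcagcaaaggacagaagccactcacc
Orm2: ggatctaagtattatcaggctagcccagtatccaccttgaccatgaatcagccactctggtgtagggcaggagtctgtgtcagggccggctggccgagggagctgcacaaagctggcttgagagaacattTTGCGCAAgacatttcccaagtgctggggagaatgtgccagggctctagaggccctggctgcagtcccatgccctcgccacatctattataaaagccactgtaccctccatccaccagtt
Saa1: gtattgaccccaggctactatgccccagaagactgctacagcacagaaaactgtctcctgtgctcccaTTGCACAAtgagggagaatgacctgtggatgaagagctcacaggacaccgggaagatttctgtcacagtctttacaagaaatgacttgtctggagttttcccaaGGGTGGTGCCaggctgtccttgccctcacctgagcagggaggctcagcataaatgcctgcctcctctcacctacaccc
Saa2: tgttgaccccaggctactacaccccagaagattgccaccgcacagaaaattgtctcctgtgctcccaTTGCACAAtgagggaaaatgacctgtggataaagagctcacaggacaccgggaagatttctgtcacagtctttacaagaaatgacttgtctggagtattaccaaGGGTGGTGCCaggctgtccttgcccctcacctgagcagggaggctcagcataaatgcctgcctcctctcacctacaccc

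The C/EBP letters stood in 7 of the 8 windows, all but that of Apcs, where 9.57% of 32841 windows of the same length in the RefSeq table held them. In Lcn2 they ran from 216 to 209 bases before the start, in Saa3 from 99 to 92, in Orm2 from 120 to 113, and in Saa2 from 183 to 176. The NF-kB letters stood in 4 windows, those of Lcn2, Saa1, Saa2 and Saa4, near the 45.8% of all windows that held them. The STAT letters stood in the window of Apcs alone, against 7.02% of all windows. The windows of Saa1 and Saa2 matched at 94.8% of 251 aligned positions and carried the same C/EBP and NF-kB letters. No 2 of the matched patterns overlapped in a window, and a match is a description of letters and not of binding.

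**Figure D1:**
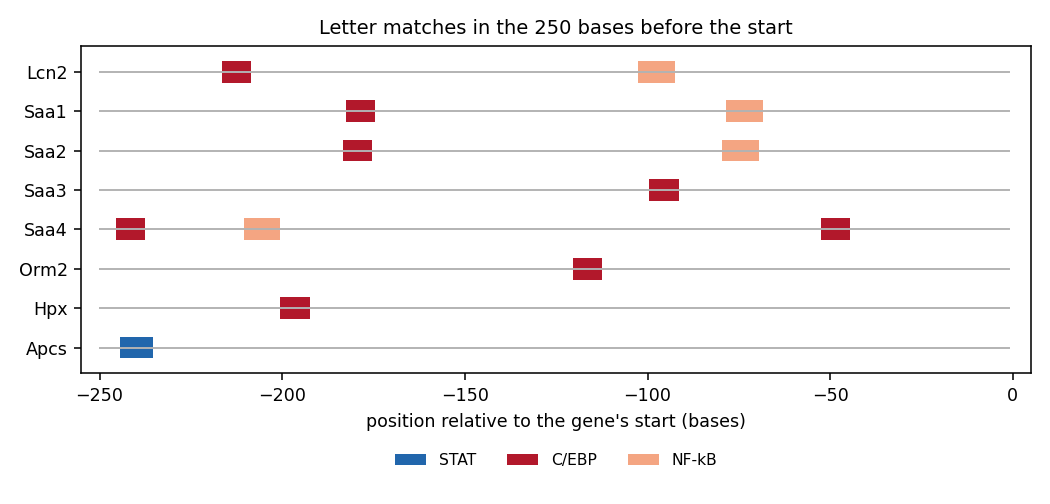
Positions of the letter matches in the 250 bases before the start of 8 acute phase protein genes. The horizontal axis is the distance from the start in bases and each coloured block is a match to the C/EBP, NF-kB or STAT pattern. Red C/EBP blocks stand in 7 of the 8 rows, and the row of Apcs holds only a STAT block.

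Lcn2, on 1 of its 2 probe sets, and Saa3 rose in PEPCK-TAg liver, and no member passed the threshold downwards. Changes were tested on log2(signal + 13) with limma and called at a Benjamini-Hochberg adjusted p under 0.05 over 7453 probe sets, and all 12 member probe sets were bright enough on average to be tested. Of these, 2 were called higher and 0 lower, where 9.47% of all tested probe sets were called, 6.40% higher and 3.07% lower. At an unadjusted p under 0.05 the counts were 5 higher and 0 lower, where 15.5% of all tested probe sets were higher and 11.0% lower. Both PEPCK-TAg arrays lay above both WT arrays for 5 members and below them for 1, against 30.2% and 26.3% of all tested probe sets, 56.5% together. The median log2 change of the 12 was 0.15, beside 0.0074 for all tested probe sets. In total RNA of a whole liver, a change in the share of a cell type and a change in RNA per cell cannot be told apart.

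**Figure D2:**
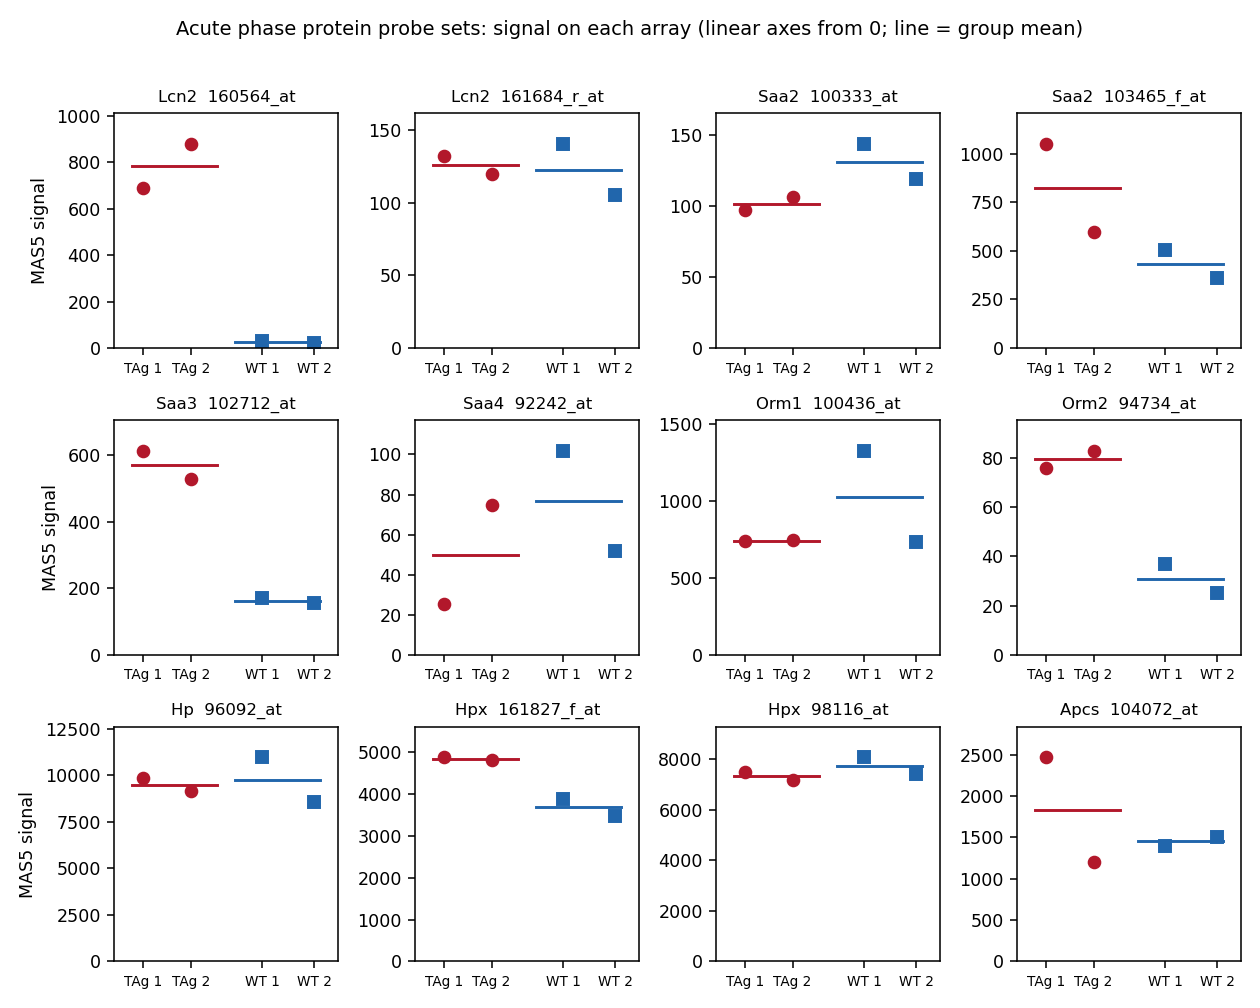
MAS5 signal of the 12 acute phase protein probe sets on each array, on linear axes that start at 0. Red circles are the 2 PEPCK-TAg arrays, blue squares the 2 WT arrays, and a line marks each group mean. The PEPCK-TAg points of Lcn2 160564_at (688 and 880) and Saa3 (614 and 527.5) lie well above the WT points.

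Lcn2, which encodes lipocalin 2 and is made in inflamed liver and in neutrophils, macrophages and fat, was read by a pair of probe sets that disagreed. On 160564_at its MAS5 signal was 688 and 880 on the PEPCK-TAg arrays, against 29.0 and 19.1 on the WT arrays. The log2 change was 4.43 ± 0.22 (SE as moderated by limma, n = 2 per group). Its 95% interval was 3.89 to 4.97, with an adjusted p of 0.000643 in the limma fit. That was the sixth largest rise of the 7453 probe sets. The WT mean of this probe set alone lay below the brightness at which probe sets entered the test, a signal of 48.1, so the size of its change depends on the offset added before the log, and it was 4.99 with an offset of 1 and 3.86 with an offset of 32. On 161684_r_at the signal was 132.5 and 120 on the PEPCK-TAg arrays, against 140.5 and 105 on the WT arrays, and the groups overlapped. The log2 change there was 0.046 ± 0.22 (SE), with an interval of -0.47 to 0.56 and an adjusted p of 0.916 by limma. The suffix r marks a probe set for which some of the manufacturer's rules of probe choice were dropped. The changes on the 2 probe sets differed by 4.38 in log2.

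Among the serum amyloid A genes, Saa3, a form made by macrophages and fat as well as by liver, had a signal of 614 and 527.5 in PEPCK-TAg liver, against 172 and 154 in WT liver. It rose by 1.73 ± 0.17 in log2 (SE, n = 2 per group), with a 95% interval of 1.31 to 2.14, which is 2.48- to 4.42-fold, and an adjusted p of 0.00294 by limma. The replicates of either group stood close together, with a gap of 0.21 in log2 between the PEPCK-TAg arrays and of 0.15 between the WT arrays. Of the 13 other settings tried on this probe set, none ended the call, and the change stayed between 1.58 and 1.83.

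Saa2, which encodes a main circulating serum amyloid A, was read by probe sets that pointed in opposite directions, and neither passed the threshold. On 103465_f_at the signal was 1051 and 595 in PEPCK-TAg liver, against 502 and 361 in WT liver. Both PEPCK-TAg arrays were higher here, with a log2 change of 0.87 (interval 0.16 to 1.59, limma adjusted p = 0.125), but they lay 0.81 apart in log2, a wider gap than on 95.1% of tested probe sets. Without PEPCK-TAg replicate 2 the change was 1.28 and passed (limma adjusted p = 0.0224), and without PEPCK-TAg replicate 1 it was 0.47 (limma adjusted p = 0.403). On 100333_at the signal was 96.9 and 106 in PEPCK-TAg liver, against 143.5 and 119 in WT liver. Both PEPCK-TAg arrays were lower there, with a log2 change of -0.33 (interval -0.81 to 0.16, limma adjusted p = 0.37). The suffix f marks probes shared within a sequence family. In the RefSeq gene table the older names Saa1 and Saa2 stand as synonyms for each other, so the 103465_f_at signal may hold transcripts of either gene.

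Saa4, a form that is made constitutively, varied more between replicates than between groups. Its signal was 25.3 and 74.8 in PEPCK-TAg liver, against 102 and 51.6 in WT liver. The groups overlapped, and the log2 change of -0.57 had an interval of -1.71 to 0.57 (limma adjusted p = 0.505). It was 0.027 without PEPCK-TAg replicate 1. Saa-ps, a pseudogene of the cluster on chromosome 7, was outside the rule and too dim to be tested, at 47.7 and 22.3 in PEPCK-TAg liver, against 13.8 and 22.5 in WT liver.

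**Figure D3:**
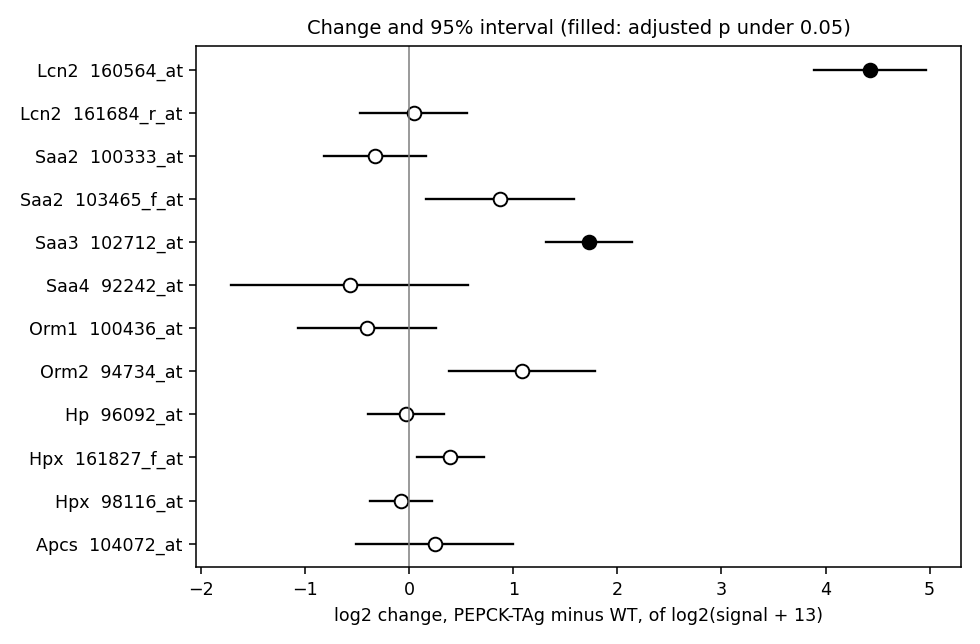
Log2 change of each acute phase protein probe set, PEPCK-TAg minus WT on the log2(signal + 13) scale, with its 95% interval from limma, which is not adjusted for the number of probe sets. Filled points passed the threshold. Lcn2 160564_at (4.43) and Saa3 (1.73) are filled, and the intervals of Saa2 103465_f_at, Orm2 and Hpx 161827_f_at also lie above 0 without passing after adjustment.

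The orosomucoid genes, which encode alpha-1-acid glycoproteins and lie beside each other on chromosome 4, gave 0 calls. Orm2 had a signal of 75.9 and 83.0 in PEPCK-TAg liver, against 36.7 and 25.1 in WT liver, and the groups did not overlap. Its log2 change was 1.09 ± 0.29 (SE), with an interval of 0.39 to 1.79 and a limma adjusted p of 0.0688. Orm2 was dim, with a mean of 5.99 on the log2 scale where 5.93 was needed to enter the test, and its WT mean alone fell short, as for Lcn2. It passed in a fit without a mean-variance trend (limma adjusted p = 0.0375) and was not tested when either PEPCK-TAg array was left out, because its mean then missed the filter.

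Orm1 had a signal of 739 and 746.5 in PEPCK-TAg liver, against 1328.5 and 732 in WT liver. The PEPCK-TAg arrays and WT replicate 2 stood within a narrow range and WT replicate 1 was high. The log2 change was -0.40 (interval -1.06 to 0.26, limma adjusted p = 0.412) with both WT arrays and 0.021 without WT replicate 1. A probe set annotated to both Orm1 and Orm2, and so outside the rule, had the same shape, with 3372 and 3474 in PEPCK-TAg liver, against 6652 and 3078.5 in WT liver (log2 change -0.40, limma adjusted p = 0.498). Orm3 was too dim to be tested, at 30.2 and 42.2 in PEPCK-TAg liver, against 53.4 and 46.5 in WT liver.

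WT replicate 1 was the higher WT array for other members as well. Of the 12 member probe sets, 11 were higher on WT replicate 1 than on WT replicate 2, all but that of Apcs, where 52.6% of all tested probe sets were. Between the PEPCK-TAg arrays 7 of 12 were higher on replicate 1. The gap of 0.85 in log2 between the WT arrays for Orm1 exceeded that of about 94.7% of tested probe sets, whose median gap was 0.23 in WT and 0.19 in PEPCK-TAg.

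Hp, which encodes haptoglobin, had signals of 9858 and 9126 in PEPCK-TAg liver, against 10947 and 8568 in WT liver, and the PEPCK-TAg values lay between the WT values. Its log2 change was -0.030 ± 0.15 (SE), with an interval of -0.40 to 0.34 (limma adjusted p = 0.923). Hpx, which encodes the haem-binding hemopexin, was read by a pair of probe sets. On 98116_at it had 7508 and 7189 in PEPCK-TAg liver, against 8078 and 7433 in WT liver, with overlapping groups and a log2 change of -0.077 (interval -0.37 to 0.22, limma adjusted p = 0.752). On 161827_f_at it had 4866 and 4813 in PEPCK-TAg liver, against 3887 and 3472 in WT liver. These groups did not overlap, and the log2 change of 0.40 (interval 0.08 to 0.72) had a limma adjusted p of 0.121.

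The readings of the bright members Hp and Hpx moved with the scaling. The 100 brightest tested probe sets had a median log2 change of -0.33 in these data. Quantile normalization and cyclic loess brought that median to -0.0074 and -0.016. With them the change of Hp was 0.31 and 0.30, that of Hpx 98116_at 0.21 and 0.23, none past the threshold, and that of Hpx 161827_f_at 0.69 and 0.63, which passed (limma adjusted p = 0.0173 and 0.0248).

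Apcs, which encodes the pentraxin serum amyloid P component, had a signal of 2465 and 1205 in PEPCK-TAg liver, against 1401.5 and 1503 in WT liver. The PEPCK-TAg arrays stood on either side of the WT arrays, with a gap of 1.03 in log2, wider than on about 97.4% of tested probe sets. The log2 change was 0.25 (interval -0.51 to 1.0, limma adjusted p = 0.686), and -0.27 without PEPCK-TAg replicate 1. Apcs, Saa2 103465_f_at and Hp were all higher on PEPCK-TAg replicate 1 than on replicate 2, while Lcn2 160564_at, Saa4 and Orm2 were lower.

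**Figure D4:**
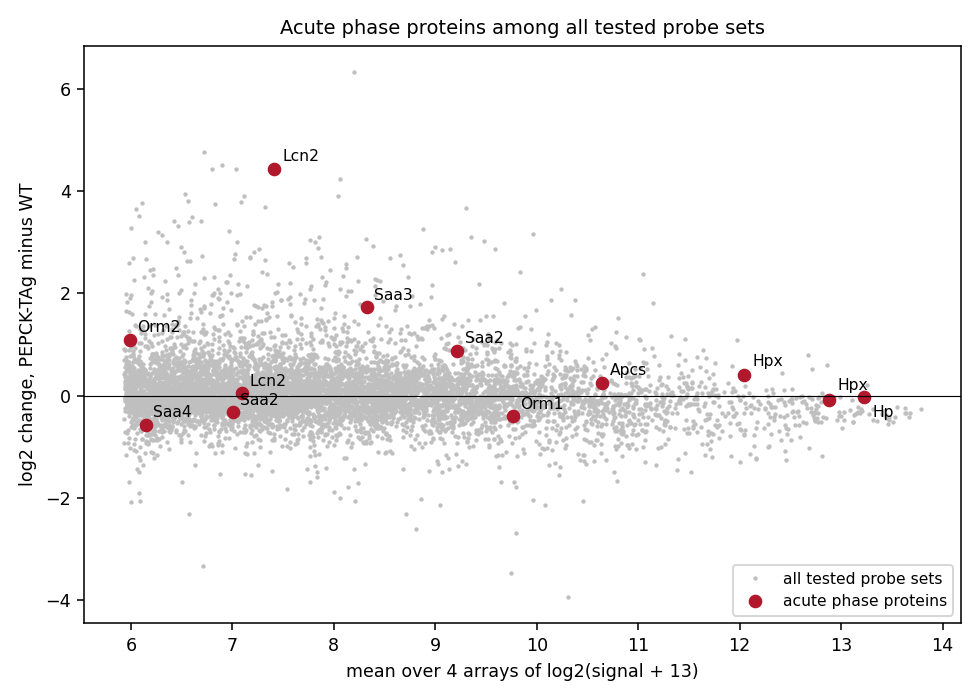
Log2 change (PEPCK-TAg minus WT) of the 7453 tested probe sets against their mean log2(signal + 13) over the 4 arrays. Grey points are all probe sets and red points the 12 acute phase protein probe sets. Lcn2 160564_at, at 4.43, lies near the top of the cloud, Saa3 at 1.73 above most of it, and the bright grey points at the right sit below 0, with a median of -0.33 for the 100 brightest.

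The genes with the most similar pattern were taken as the 3 probe sets of other genes nearest in mean-centred log2 value over the 4 arrays. With 2 arrays per group this distance mostly picks probe sets with a group change of like size, and shared control was not tested. The WT signals of Ckap2, Cdk1, Hao2 and Fen1, named below, lay under the filter signal of 48.1. For Lcn2 160564_at these were Ckap2 (distance 0.25), Cdk1 (0.56) and Hao2 (0.56). Ckap2 and Cdk1 are genes of dividing cells, and Hao2 encodes a peroxisomal hydroxy acid oxidase. Ckap2 had 492 and 521 in PEPCK-TAg liver, against 12.3 and 9.70 in WT liver. For Saa3 they were Ppl (0.024), Fen1 (0.090) and Elf3 (0.12), which encode the cell junction protein periplakin, a flap endonuclease of DNA replication and an epithelial transcription factor. Ppl had 759.5 and 652 in PEPCK-TAg liver, against 210 and 191.5 in WT liver.

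Among other positive acute phase genes, 5 rose and most did not pass. Each gene was read by its brightest probe set, and 9.84% of 5650 genes were called, 6.83% higher and 3.01% lower. Of 34 such genes listed, 28 were on the array and 25 were tested, and of these 5 rose, 0 fell and 20 missed the threshold. The list's median log2 change was -0.22, against 0.015 for all tested genes. At an unadjusted p under 0.05 there were 5 higher and 5 lower, where 16.6% of all tested genes were higher and 11.3% lower. The count called lower was 2 with median centring and 5 with the replicate number as a block. The risers were the metallothionein genes Mt1 (3.41 ± 0.36, log2 change ± SE) and Mt2 (3.03 ± 0.30), whose products bind zinc and copper, the neutrophil chemokine gene Cxcl1 (2.69 ± 0.19), Il1rn (1.83 ± 0.32), which encodes the interleukin-1 receptor antagonist, and Cd14 (1.55 ± 0.23), a receptor for bacterial lipopolysaccharide. Mt1 had a signal of 355.5 and 199 in PEPCK-TAg liver, against 19.5 and 8.2 in WT liver. As for Lcn2 its WT mean alone missed the filter, and the change was 4.28 with an offset of 1 and 2.72 with an offset of 32. Mt1 was too dim to be tested without PEPCK-TAg replicate 1 or with the filter at the 60th percentile. Cxcl1 had a signal of 897 and 993 in PEPCK-TAg liver, against 156 and 116.5 in WT liver, and its other probe set rose too. Il1rn did not pass without PEPCK-TAg replicate 2 (limma adjusted p = 0.0553), without WT replicate 2 (limma adjusted p = 0.0601) or without a filter (limma adjusted p = 0.0584). Of the 25 tested genes 7 had positive changes and 18 negative. The positive changes that missed the threshold were those of Vnn1 (1.49, limma adjusted p = 0.306) and Lbp (0.044). Several genes of secreted plasma proteins in this list gave negative values. Some of them, such as Fgb, Fgg and Cp, are bright. The 100 brightest tested probe sets had a median of -0.33, which quantile normalization and cyclic loess brought to -0.0074 and -0.016. The part of the scaling in these negative values was not tested. The fibrinogen genes Fga, Fgb and Fgg had log2 changes of -0.72, -0.43 and -0.53, Lrg1 of -0.98, Itih4 of -0.25, Cp of -0.063 and Crp of -0.12, none past the threshold. These 7 genes, Vnn1, Lbp and Hamp (-0.47), which encodes the iron hormone hepcidin, were chosen for mention after their values were seen.

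Negative acute phase genes, whose transcripts fall in inflamed liver, were lower in part. Of 18 listed, 15 were tested, and 0 rose, 4 fell and 11 missed the threshold, where 3.01% of all tested genes were called lower. Of the 15 tested genes 1 had a positive change and 14 negative. At an unadjusted p under 0.05 by limma there were 1 higher and 12 lower, where 16.6% of all tested genes were higher and 11.3% lower. The list's median log2 change was -0.40. Those called lower were Apoa4 (-1.45), Apoa2 (-0.74) and Rbp4 (-0.64), which encode apolipoproteins and the carrier of retinol, and the growth factor gene Igf1 (-0.62). Rbp4 had a signal of 6869 and 6355 in PEPCK-TAg liver, against 10775 and 9803 in WT liver. Albumin (Alb) had 13339 and 12446 in PEPCK-TAg liver, against 16723 and 14430 in WT liver (log2 change -0.27, interval -0.57 to 0.04, limma adjusted p = 0.237), and transthyretin (Ttr) changed by -0.32 (limma adjusted p = 0.291). Several genes of this list, such as Alb, Ttr and Rbp4, are bright, and the 100 brightest probe sets had a median of -0.33. With quantile normalization and cyclic loess the change of Apoa4 was -1.27 and -1.27, and that of Apoa2 -0.42 and -0.49. For Rbp4 it was -0.34 and -0.32, and for Igf1 -0.44 and -0.42. The part of the scaling in these falls was not tested. With the replicate number as a block 1 gene was called higher. The count of falls was 8 with that block, 1 with quantile normalization, 2 with cyclic loess, 7 with median centring, 0 without a filter and 1 without trend. It was 1 without either PEPCK-TAg array and 0 without WT replicate 1. The call was lost in 3 of 13 other settings for Apoa4, 6 for Apoa2, 7 for Rbp4 and 8 for Igf1. Igf1 did not pass on its other probe set (-0.38, limma adjusted p = 0.275). The other probe set of Apoa2, at 53.7 and 54.8 in PEPCK-TAg liver, against 63.5 and 59.2 in WT liver, changed by -0.14 (limma adjusted p = 0.777).

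Genes of the interleukin-6 and interleukin-1 pathway passed in 1 of 25 tested cases. That gene was Lifr, the receptor of leukaemia inhibitory factor, which fell by 1.17 in log2, with a signal of 1416 and 1024 in PEPCK-TAg liver, against 3531 and 2116.5 in WT liver, and which lost its call in 6 of 13 other settings. These were without PEPCK-TAg replicate 2 (limma adjusted p = 0.114), without WT replicate 1 (0.122), quantile normalization (0.0688), cyclic loess (0.0615), no filter (0.0967) and no trend (0.0833). Of its 3 other tested probe sets, 1 also fell, by 1.33, and the others gave -0.70 and -0.87 without passing. At an unadjusted p under 0.05 there were 8 genes higher and 3 lower of the 25, beside 16.6% and 11.3% of all genes, and the median log2 change was 0.27. The count called higher was 1 with an offset of 32 and 4 with the replicate number as a block. It also rose when WT replicate 1 or WT replicate 2 was left out. The cytokine gene Il1b, named after its values were seen, had 78.5 and 122 in PEPCK-TAg liver, against 35.9 and 13.3 in WT liver (log2 change 1.63, limma adjusted p = 0.053). Both WT signals lay below the filter, a signal of 48.1, so Il1b entered the test through the PEPCK-TAg arrays. As for Lcn2, the size of its change depends on the offset. Il6 was too dim to be tested, at 2.60 and 3.70 in PEPCK-TAg liver, against 2.60 and 15.8 in WT liver. Of the receptors, Il6ra (-0.21), Il6st (0.12), which encodes the shared subunit gp130, and Il1r1 (-0.56) did not pass (limma adjusted p = 0.514, 0.834 and 0.102). The NF-kB genes Relb (0.93), Nfkb2 (0.83), Nfkbiz (0.73) and Rela (0.42) were higher at an unadjusted p under 0.05. They did not pass (limma adjusted p = 0.074, 0.112, 0.0594 and 0.149), and Nfkbie was too dim to be tested. Cebpa was lower at that unadjusted level (-0.44, limma adjusted p = 0.0989). These genes were named after their values were seen. Of the other factors that act on acute phase genes, Stat3 changed by 0.22, Cebpb by 0.36 and Cebpd by 0.70 without passing (limma adjusted p = 0.556, 0.496 and 0.149). Cebpd passed without WT replicate 2 (1.04, limma adjusted p = 0.0477) and was 0.36 without WT replicate 1.

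A pair of feedback inhibitors of the pathway were measured as well. Socs3, which is induced by STAT3 and restrains the receptor, had 207 and 174 in PEPCK-TAg liver, against 61.4 and 119 in WT liver. Its log2 change of 1.03 (interval 0.32 to 1.7) had a limma adjusted p of 0.0829, and of 0.0244 without WT replicate 2. Nfkbia, which encodes an inhibitor of NF-kB, changed by 0.27 (limma adjusted p = 0.433) on its brighter probe set and by -0.12 (limma adjusted p = 0.707) on the other. Stat3 likewise changed by 0.22 on its brighter probe set and by -0.040 on the other.

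Partners of haptoglobin, hemopexin and lipocalin 2 in haem and iron handling gave 1 call among 14 tested genes. Tfr2, which encodes the iron-sensing transferrin receptor 2, fell by 0.70 in log2, with 587 and 489 in PEPCK-TAg liver, against 885 and 875 in WT liver, and lost its call in 7 of 13 other settings, with any 1 array left out (limma adjusted p between 0.073 and 0.22), with cyclic loess, without a filter and without trend. At an unadjusted p under 0.05 there were 2 genes higher and 3 lower of the 14, beside the same 16.6% and 11.3%, with a list median of 0.0079. Hmox1, which encodes the haem-degrading oxygenase, had 562 and 765 in PEPCK-TAg liver, against 438 and 432 in WT liver (log2 change 0.58, limma adjusted p = 0.121). Lrp1, the receptor of haem-loaded hemopexin, changed by -0.56 (limma adjusted p = 0.0659), and Slc22a17, a receptor of lipocalin 2, by 0.20 (limma adjusted p = 0.805), both named after their values were seen.

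**Figure D5:**
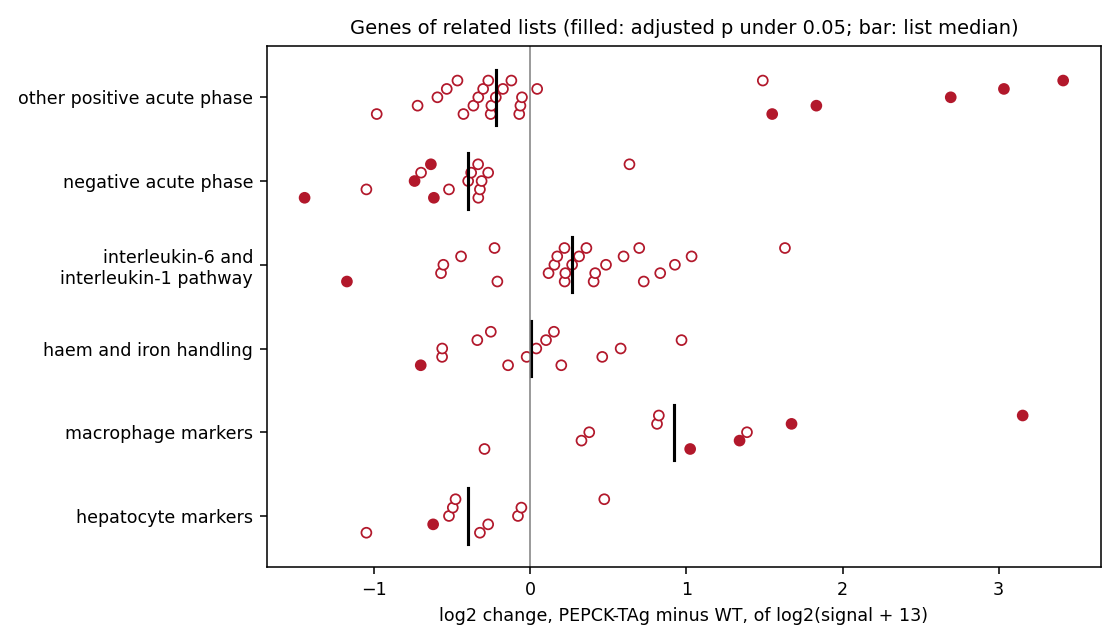
Log2 change (PEPCK-TAg minus WT) of genes in 4 related lists and of macrophage and hepatocyte markers, each gene read by its brightest tested probe set. Filled points passed the threshold and black bars mark list medians. Positive acute phase genes show 5 filled points from 1.55 upwards, an open point for Vnn1 at 1.49 and a list median of -0.22. Macrophage markers have a median of 0.92.

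Among markers of other cells that make lipocalin 2 or Saa3, those of macrophages rose in part, and 0 of neutrophils and 0 of fat passed. Of 14 macrophage markers listed, 10 were tested and 4 rose, namely Mpeg1 (3.15), Cd5l (1.67), Clec4f (1.34) and Fcgr1 (1.02), with a list median of 0.92 in log2. Their count was 1 without PEPCK-TAg replicate 2, 2 without WT replicate 1, 6 without WT replicate 2, 1 without a filter and 1 without trend. The 6 that missed the threshold were Lyz2 (1.39), Cd68 (0.82), Marco (0.81), Adgre1 (0.38), Csf1r (0.33) and Mrc1 (-0.29). Csf1r changed by -0.93 on its other probe set (limma adjusted p = 0.131). The summed signal of the 11 on the array was 8735 and 11340 in PEPCK-TAg liver, against 2646 and 4896 in WT liver. Its largest parts in PEPCK-TAg liver were Mpeg1, Clec4f and Cd5l. Mpeg1 had 3144 and 2776, against 349 and 294 in WT liver. Clec4f had 1972 and 2953, against 738 and 1209, and Cd5l 1593 and 2061, against 381 and 817. Of 13 neutrophil markers 2 were bright enough to be tested. In the main fit 0 passed the limma threshold, with 1 higher at an unadjusted p under 0.05. The count called higher was 1 without a filter and 1 with the replicate number as a block. Leaving out WT replicate 1 or WT replicate 2 also raised it. The summed signal of the 13 was 631 and 636 in PEPCK-TAg liver, against 415 and 324 in WT liver. S100a8, an abundant neutrophil gene, had 105 and 89.9 in PEPCK-TAg liver, against 20.0 and 16.6 in WT liver. S100a9 had 78.0 and 85.8, against 12.6 and 26.3, and Camp 177 and 161, against 94.6 and 39.4. The brighter Mpo probe set had 5.40 and 11.7, against 36.4 and 21.4, and Ngp stayed between 13.8 and 21.9 on all 4 arrays. These genes were named after their values were seen. The part of these cells in the rises of Lcn2 and Saa3 was not tested.

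The labelled tissue carried its defining markers, with 0 of 10 hepatocyte markers higher and 1, the prothrombin gene F2 (-0.62), lower, a count that ran from 0 to 5 over the other settings. The summed hepatocyte signal was 62682 and 57979 in PEPCK-TAg liver, against 84459 and 74894 in WT liver. Among fat markers, Adipoq had 34.7 and 20.3 in PEPCK-TAg liver, against 25.0 and 21.3 in WT liver, and Retn stayed between 5.0 and 9.4 on the 4 arrays. Of 4 tested fat markers, 0 passed the limma threshold, with 1 lower at an unadjusted p under 0.05. The fat list's summed signal was mostly that of Car3, with 7035 and 7064 in PEPCK-TAg liver, against 10957 and 8781 in WT liver. The other 5 fat markers on the array summed to 608 and 478 in PEPCK-TAg liver, against 586 and 412 in WT liver, a sum taken after the values were seen. The bile duct keratin gene Krt19 stayed between 1.8 and 5.0 on its 2 probe sets, and the summed bile duct signal was 84.6 and 108 in PEPCK-TAg liver, against 132 and 164 in WT liver.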

How the data were processed

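Expression was measured on 4 Affymetrix MG_U74Av2 arrays, chip type per the file headers. The deposited values are intensity values, MAS5 signals on a linear scale made by the authors, per the submitters' processing notes. The sources used here give no version of that software, no scaling target and no detection calls. The mean without the lowest and highest 2% was 250.2 on every array, so the signals were used as scaled. The experiment files hold instrument records only. Fluidics module and scan time differed for each array, and every other record was shared by all 4.

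In the platform's annotation 10833 of 12422 non-control probe sets had 1 gene symbol, 396 several and 1193 none here. Entrez identifiers of the 12 members matched the RefSeq gene table. The scale was log2(signal + 13), where 13 is 5% of that mean, and probe sets were kept from the 40th percentile of mean log2 value upwards, which left 7453 and 5650 genes. PEPCK-TAg was set against WT in R 4.3.3 by the two-sided test of limma 3.58.1 (lmFit, eBayes with trend, 2 residual and 4.61 prior degrees of freedom) and Benjamini-Hochberg adjustment over all kept probe sets. Every SE and interval given is the moderated one of that fit. It draws in part on the variance of other probe sets and is not that of the 4 values alone. Fold changes on this scale understate the change of dim genes. Exact permutation of 2 against 2 arrays cannot give a p below 0.333 and was not run. Precision is limited by having 4 arrays. The procedure was tested on simulated data.

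Arrays of different groups correlated with r = 0.896 to 0.914 over probe sets and those within a group with 0.966 (PEPCK-TAg) and 0.965 (WT).

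Members, lists and tests were chosen with earlier results of these data known. All member probe sets are named. From the other lists the genes past the threshold are named, up to 8 of smallest p per direction, as are Stat3, Socs3, Cebpb, Cebpd, Il6ra, Il6st, Il1r1, Nfkbia, Hmox1, Alb and Ttr. Alternatives were 3 normalizations, 2 offsets, 2 filters, no trend, a block on the replicate number, each array left out and, for the lists, the mean of a gene's probe sets.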

Additional observations from a re-analysis of the deposited data

How the results depend on the processing

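The rises of Lcn2 (160564_at) and Saa3 kept their direction and call in all 13 other settings, with log2 changes of 3.86 to 4.99 and 1.58 to 1.83. The count of acute phase protein probe sets called higher was 2 or 3 and the count called lower 0 in every setting. The third was Saa2 103465_f_at (0.87 with the replicate block), Hpx 161827_f_at (0.69 and 0.63 with quantile normalization and cyclic loess) or Orm2 (1.09 without trend). Saa4, Orm2, Saa2 100333_at and Lcn2 161684_r_at were too dim for the 60th percentile filter, and Saa4 was not tested without WT replicate 1. Over all probe sets 477 were higher and 229 lower. The higher count ran from 288 to 420 and the lower from 110 to 143 when an array was left out. The lower count was 105 without a filter and 117 without trend. With median centring, which moved the median change over all tested probe sets to -0.14, 403 were called higher and 409 lower. The replicate numbers tie no animals in the labels and the deviations of same-numbered arrays correlated with r = 0.181. The fit with the replicate number as a block called 696 higher and 444 lower, with 3 member probe sets higher.

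Directions that turned, none of them past the threshold in either fit, were these, and the cause was not tested. Lcn2 161684_r_at changed by -0.097 with quantile normalization, -0.098 with median centring and -0.021 with cyclic loess, Hp by 0.31 with quantile normalization and 0.30 with cyclic loess, and Hpx 98116_at by 0.21 and 0.23 with the same pair. Il6st changed by -0.027 with median centring. Alb changed by 0 with quantile normalization and 0.11 with cyclic loess, and Ttr by 0.019 with quantile normalization. When 1 array was left out, the change ran from -0.14 to 0.24 for Lcn2 161684_r_at, from -1.17 to 0.027 for Saa4, from -0.83 to 0.021 for Orm1, from -0.21 to 0.15 for Hp, from -0.27 to 0.76 for Apcs, from -0.051 to 0.77 for Cebpb and from -0.28 to 0.51 for Il6st.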
